A study of Homo sapiens with 6 samples.

Results

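The genes examined here are the core machinery of macroautophagy and its cargo receptors. They were named by their established roles, although the list was written with earlier results of these data known. Of the 55 genes named, 40 were among the 10542 genes of the deposited table, and ULK2, ATG13, ATG101, BECN1, VMP1, ATG4B, ATG7, ATG10, MAP1LC3A, GABARAP, GABARAPL1, GABARAPL2, FUNDC1, VAMP8 and RUBCN were not analysed here. The RNA came from DU145, a line established from a human prostate carcinoma. Cells named DU145-TFEB carried a lentivirus for overexpression of TFEB, and those named DU145-vector carried the blank vector virus as the control. Each group had 3 polyA RNA-seq libraries, both lines had gone through puromycin selection after the virus was added, and the study set them side by side to learn what extra TFEB changes in cells that make little of it. Nothing in the labels says whether replicates were separate cultures or whether each line was 1 clone, so the error between libraries may be technical.

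Autophagy encloses cytoplasm in a double membrane, the autophagosome, and delivers it to the lysosome. The ULK complex starts the process, the class III PI3-kinase complex marks the site with PI3P, lipid-handling proteins enlarge the membrane, and a pair of ubiquitin-like conjugation systems attach ATG8 proteins such as LC3 to it. Receptors then link cargo to the ATG8 proteins, and SNAREs and tethers fuse the vesicle with the lysosome. TFEB is a transcription factor of the MiT family that binds E-boxes of the CLEAR type, whose centre reads CACGTG, and is best known for raising lysosomal and autophagy genes on starvation. DU145 is known as a line with a defect in ATG5 splicing and in LC3 lipidation, which limits it as a model of autophagic flux.

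The values are read counts divided by a size factor of each library, called normalized counts below. The libraries held 13999961 to 16511477 reads on the listed genes, and the lowest count of any of the 40 genes in any library was 71 reads. Every listed gene had an adjusted p-value under 0.05 in the deposited comparison of the same 6 libraries, so an adjusted p printed here is a description and not independent evidence. For the same reason unaltered genes are almost missing from the background, since 3 of the listed genes lay within 0.2 of 0 on the log2 scale. TFEB itself measured 6325, 6301 and 6036 normalized counts in DU145-TFEB replicates 1 to 3 and 127, 124 and 125 in those of DU145-vector, a 49.6-fold difference (log2 fold change 5.62, SE 0.075, adjusted p = 3.18e-10, limma). Transcripts of the virus and of the cell's own gene cannot be told apart in these counts. Of the markers of an epithelial prostate line, KRT8, KRT18, KRT19 and CD44 were present at 1451 to 28109 normalized counts, while EPCAM and CDH1 were not analysed here. All 4 were lower in DU145-TFEB, by 0.38 to 0.78 on the log2 scale, though the libraries of the groups overlapped for KRT19. With the composition trend described further on removed, KRT8, KRT18 and KRT19 were -1.58, -1.67 and -1.51, and CD44 was -0.03. The 7 leukocyte, endothelial and fibroblast markers were not analysed here.

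E-boxes near an annotated transcription start are shown first, because they are the sequence TFEB reads. RefSeq promoters running from 250 bases before to 50 bases after the start (GRCh38.p14) could be matched to 32 of the 40 genes. The start of the window lay more than 1000 bases from the start of the gene as the deposited table gives it for AMBRA1, ZFYVE1, ATG5, ATG16L1 and MAP1LC3B, so those 5 windows belong to another start, while it lay within 240.0 bases for each gene with an E-box. CACGTG, a palindrome that reads alike on both strands, stood in the windows of ATG14, NRBF2, ATG3, TBK1 and SNAP29, 15.6% of the 32, against 10.3% of 7619 listed genes with a promoter and 7.26% of all promoters in the table. All 5 also held the longer TCACGTG on 1 strand or the other (6.31% of listed and 3.71% of all promoters), and NRBF2 and ATG3 held TCACGTGA (2.07% and 0.98%). The longer motifs contain the shorter one, so the counts overlap. The 250 bases upstream of ATG14 (chr14:55411831-55412080, minus strand) and of ATG3 (chr3:112561963-112562212, minus strand) are printed 5′ to 3′ in the direction of transcription, with the E-box in capitals, because these genes, a subunit of the PI3-kinase complex and the enzyme that passes LC3 to lipid, had an E-box close to the start and moved in opposite directions on the authors' scaling, though both were higher with the composition trend described further on removed (0.80 and 0.25).
ATG14: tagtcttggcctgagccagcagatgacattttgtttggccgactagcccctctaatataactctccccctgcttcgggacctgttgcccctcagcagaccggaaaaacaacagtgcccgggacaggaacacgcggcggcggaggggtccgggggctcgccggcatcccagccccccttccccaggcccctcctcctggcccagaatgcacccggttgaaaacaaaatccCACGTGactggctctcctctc
ATG3: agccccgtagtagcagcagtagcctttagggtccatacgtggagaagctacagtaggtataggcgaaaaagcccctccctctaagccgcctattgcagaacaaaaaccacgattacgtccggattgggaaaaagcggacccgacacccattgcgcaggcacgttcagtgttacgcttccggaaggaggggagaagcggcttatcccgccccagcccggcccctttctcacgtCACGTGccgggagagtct
Relative to the start, the middle of the E-box lay at position -18 in ATG14 and at -15 in ATG3, and ATG3 had another at position 8. Stretches of 30 bases around the remaining E-boxes are printed below. The downstream E-box of ATG3 and that of NRBF2 had T before and A after the shared core. SNAP29 had C and A there, as ATG14 did, and TBK1 had T and G.
ATG3, downstream E-box: agagtctagtgtCACGTGaggccccggtgg
NRBF2, position -243: tcctCACGTGacttcagtgtagactttaag
TBK1, position -28: ccggccgtcggtCACGTGgcctccggccag
SNAP29, position -181: cggctttcccgcCACGTGacctctcagttg
Of these 5 genes, ATG14 was higher in DU145-TFEB (0.41 on the log2 scale) and NRBF2 (-0.79), ATG3 (-0.66), TBK1 (-1.15) and SNAP29 (-0.29) were lower. With the composition trend removed ATG3 turned to 0.25, and NRBF2, TBK1 and SNAP29 stayed lower at -0.68, -0.29 and -0.29. Over all listed genes, 49.7% of those with CACGTG in the window were higher in DU145-TFEB, and 46.4% of those without it. Among known targets of TFEB, the windows of SQSTM1 and WIPI1 held no CACGTG, nor did that of MAP1LC3B, which lies 8341 bases from the gene's start, and UVRAG was not matched. These letters describe the window and do not show binding.

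Across the 40 genes, 17 were higher and 23 were lower in DU145-TFEB than in DU145-vector, each with an adjusted p under 0.05 in limma. That is 42.5% higher, beside 47.6% of all listed genes higher and 52.4% lower by the same test. At the cutoffs of the study (adjusted p under 0.05 and a log2 fold change beyond 1.5) none of the 40 was called higher, against 2.54% of listed genes, and 5 were called lower, or 12.5%, against 16.5% of listed genes. The 5 were RB1CC1, PIK3C3, ATG2B, WDFY3 and STX17, 1 from each step except conjugation, and 2 genes passed with DESeq2 size factors (10.5% of listed genes). The study applied its cutoffs in DESeq2, whereas these calls are from limma, which called 2009 listed genes. DESeq2 on the reads recovered from the normalized counts called 1562, with 2 of the 40 genes lower (10.2% of listed genes). In GRCh38, PIK3C3 (ENSG00000078142) lies at chr18:41955206-42087830 on the plus strand, ATG2B (ENSG00000066739) at chr14:96279202-96363870 on the minus strand, WDFY3 (ENSG00000163625) at chr4:84669610-84966391 on the minus strand and STX17 (ENSG00000136874) at chr9:99906633-99970341 on the plus strand. In all 40 genes the 3 libraries of one group lay entirely above those of the other, as they did in 99.3% of listed genes. The median log2 fold change was -0.52, and that of all listed genes -0.36. Log2 fold changes ran from -1.98 for ATG2B to 0.91 for ATG4D, and 11 genes (27.5%) lay under -1 beside 31.1% of listed genes. None lay above 1, beside 8.41% of listed genes. By step, the median was -0.53 for initiation, -0.64 for nucleation, 0.30 for membrane expansion, -0.68 for conjugation, -0.77 for receptors and -0.29 for fusion. With the composition trend described below removed, these medians were -0.53, -0.45, -0.32, -0.16, -0.45 and -0.35 in the same order. In polyA libraries fewer transcripts per cell and a smaller share of a changed total cannot be told apart.

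**Figure D1:**
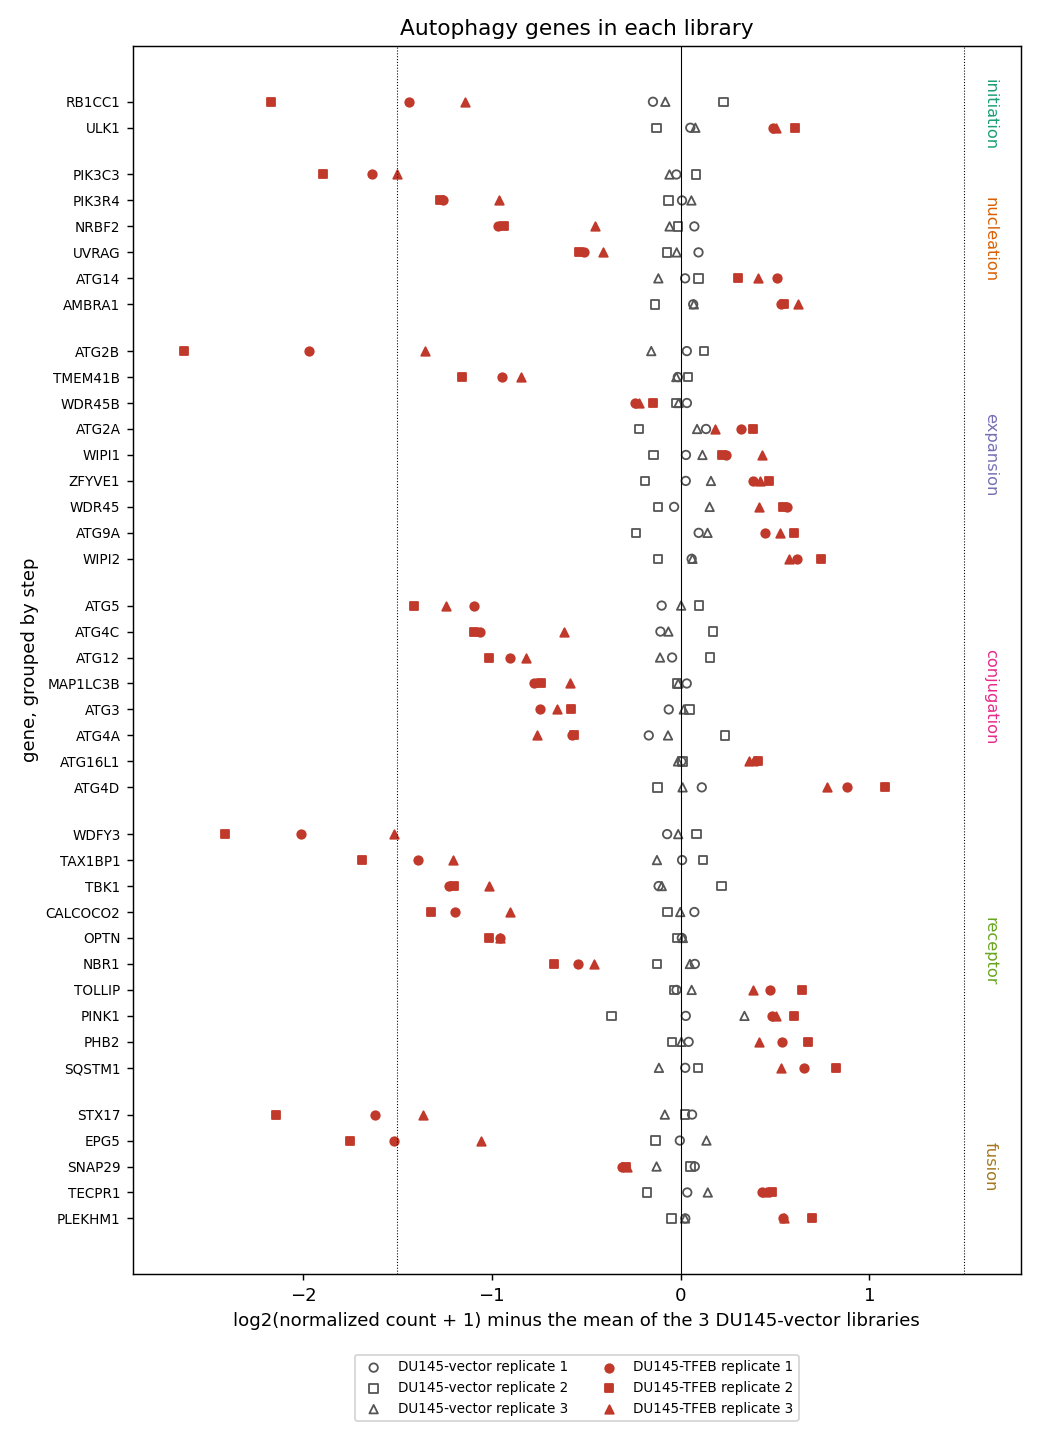
Each row is 1 of the 40 autophagy genes, grouped by step, and each point is 1 library, given as log2(normalized count + 1) minus the mean of the 3 DU145-vector libraries; dotted lines mark 1.5 on either side. The filled DU145-TFEB points lie apart from the open DU145-vector points in every row, and DU145-TFEB replicate 2 (square) is farthest to the left in all 5 genes called lower.

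The direction of a gene followed the base composition of its transcript, and this is given before the steps because it bears on each of them. The 17 higher genes had a GC content of 44.6 to 64.8% (median 56.9%, longest annotated transcript), and the 23 lower genes 34.8 to 51.5% (median 43.9%). Of the 19 genes at or above the median GC content of the listed genes, 47.3%, 16 were higher (84.2%), as were 85.6% of the listed genes in that range. Of the 21 genes below it, ATG14 alone was higher (4.76%, beside 9.57% of listed genes). Spearman's rho between log2 fold change and GC content was 0.80 over the 40 genes and 0.74 over the listed genes, a description over genes that share the same libraries. When a smooth trend against GC content and gene length was taken out of each library, 16 of the 40 genes changed sign: ULK1, AMBRA1, WIPI1, WDR45, ZFYVE1, ATG2A, ATG9A, ATG4D, SQSTM1, TOLLIP, PINK1, PHB2, PLEKHM1 and TECPR1 came out lower in DU145-TFEB, and ATG3 and ATG12 higher. The median then was -0.32 for the 40 genes and -0.32 for the listed genes, and 33 of the 40 had an adjusted p under 0.05 (69.7% of listed genes), 21 in the same direction as before and 12 in the opposite one. The removal kept the overall offset of the listed genes, so a value near -0.32 is typical of them. Above that median lay 20 of the 40 genes, 10 of them from the 17 higher genes. None of the 40 was then called at the study's cutoffs, beside 1.55% of listed genes called higher and 4.04% called lower. Values with and without the trend are given below. Whether the composition trend came from the preparation of the libraries or from the cells was not tested.

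**Figure D2:**
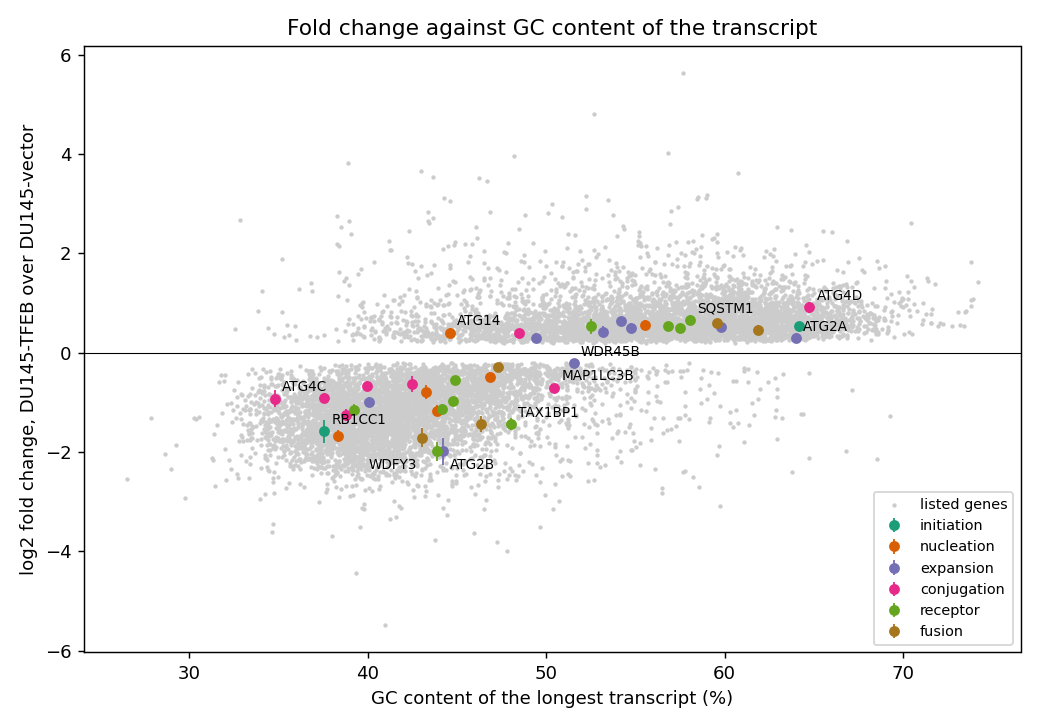
The GC content of the longest annotated transcript is on the horizontal axis (%), and the log2 fold change of DU145-TFEB over DU145-vector on the vertical axis; grey points are listed genes, and coloured points with standard errors are the 40 autophagy genes by step. Coloured points lie inside the grey cloud, with 16 of 19 above 0 at or above 47.3% GC and 20 of 21 below 0 under it.

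Initiation was represented by 2 of its 5 genes, and they moved in opposite directions. RB1CC1, the FIP200 scaffold on which the ULK complex assembles, measured 682, 410.4 and 838 normalized counts in DU145-TFEB replicates 1 to 3 and 1671, 2167 and 1749 in DU145-vector. DU145-TFEB replicate 2 was the lowest library and replicate 3 the highest of its group, 2.04 times apart. RB1CC1 fell by 1.58 on the log2 scale (SE 0.23, adjusted p = 0.000132), and its value without DU145-TFEB replicate 2 was -1.29, short of the cutoff. It also fell short without DU145-vector replicate 2. ULK1, the kinase of the complex, measured 927, 1004 and 937 against 684, 604 and 697, a log2 fold change of 0.53 (SE 0.090, adjusted p = 0.000371). The transcripts differ widely in composition, 37.6% GC for RB1CC1 and 64.2% for ULK1, and with the trend removed their log2 fold changes were -0.53 and -0.54.

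Among the 6 genes of the PI3-kinase complexes, PIK3C3 and PIK3R4, shared by both forms of the complex, fell, and of the subunits of the autophagy form ATG14 rose and NRBF2 fell. PIK3C3, which encodes the lipid kinase VPS34, measured 186, 156 and 205 normalized counts in DU145-TFEB and 572, 615 and 558 in DU145-vector, with every DU145-TFEB library far under every DU145-vector library. Its log2 fold change was -1.68 (SE 0.13, adjusted p = 4.87e-06), or -0.58 with the trend removed. PIK3R4, the VPS15 partner of that kinase, followed with 365, 361 and 449 against 879, 837 and 910.0 (-1.16, SE 0.11). NRBF2, which binds the autophagy form of the complex, showed 330.4, 338 and 471 against 680.3, 641 and 621 (-0.79, SE 0.14), with DU145-TFEB replicate 3 above the other two. For PIK3R4 and NRBF2 the values with the trend removed were -0.66 and -0.68, and both kept an adjusted p under 0.05. UVRAG, found in the endosomal form of the complex and known as a TFEB target, was lower, with 493, 483 and 529 against 751, 668 and 693 (-0.49, SE 0.091, adjusted p = 0.000692), and at -0.32 with the trend removed it matched the median of the listed genes. With quantile normalization UVRAG did not pass the test.

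ATG14 directs the kinase to the site where autophagosomes form. It measured 738, 639.7 and 687 normalized counts in DU145-TFEB and 526, 553 and 477 in DU145-vector, and its lowest DU145-TFEB library stood above the highest DU145-vector library. The log2 fold change was 0.41 (SE 0.099, adjusted p = 0.00305), and at 44.6% GC it was the only higher gene of low GC content. With the trend removed it was 0.80 (SE 0.090), the highest value among the 40 genes, where the 5 other genes of this step lay between -0.68 and -0.27. AMBRA1, a regulator of beclin 1, measured 705, 711 and 751 against 509.7, 443 and 511 (0.57, SE 0.094), but -0.27 with the trend removed.

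On the authors' scaling membrane expansion was the step with most genes on the higher side, 6 of 9. It also held the lowest value of the 40. ATG2A and ATG2B are tube-shaped proteins that carry lipid from the endoplasmic reticulum into the growing membrane. ATG2B measured 146, 91.9 and 224 normalized counts in DU145-TFEB and 588, 626 and 516 in DU145-vector, and its DU145-TFEB libraries were 2.44 times apart, the widest of the 40 genes. It fell by 1.98 (SE 0.27, adjusted p = 9.36e-05), and its value was -1.66 without DU145-TFEB replicate 2. ATG2A measured 1426, 1489.6 and 1298 against 1255, 980.2 and 1214 (0.29, SE 0.11, adjusted p = 0.022), a small difference with the nearest libraries of the groups close together, and its adjusted p was 0.0687 without DU145-TFEB replicate 1 and 0.0648 without DU145-vector replicate 2. After removal of the trend both were lower, ATG2A at -0.76 and ATG2B at -1.06.

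The PI3P readers of the WIPI family bring the conjugation machinery and ATG2 to the membrane. WIPI2, the member that recruits ATG16L1, measured 2721, 2974 and 2649 against 1849.6, 1634 and 1855 normalized counts (0.64, SE 0.081, adjusted p = 6.12e-05), and it stayed higher with the trend removed (0.27, SE 0.058). WIPI1, a known TFEB target, measured 631, 621 and 719.6 against 545, 484 and 579 (0.30, SE 0.10, adjusted p = 0.0198), and -0.07 with the trend removed, a value its SE of 0.11 does not separate from 0. Its adjusted p was 0.067 without DU145-TFEB replicate 3 and 0.0634 without DU145-vector replicate 2. WDR45, also called WIPI4, was higher at 684, 673 and 618 against 452, 426 and 515 (0.51, SE 0.10), and -0.32 with the trend removed. WDR45B, or WIPI3, was lower at 3564, 3811 and 3621 against 4314, 4152 and 4183 (-0.20, SE 0.063), the smallest difference of the 40 genes, with an adjusted p of 0.0572 without DU145-TFEB replicate 1. The sign of WDR45B depended on the scaling, since it was 0.04 with DESeq2 size factors, which move the median of all listed genes from -0.36 to -0.12, whereas it was -0.79 with the trend removed.

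ATG9A, the scramblase of the small vesicles that seed the membrane, measured 1577, 1751 and 1662 against 1235, 980.2 and 1276 normalized counts (0.52, SE 0.11), and TMEM41B, a scramblase of the endoplasmic reticulum, 569, 492 and 611 against 1088, 1128 and 1082 (-0.98, SE 0.097). The groups did not overlap in either gene. Both were lower once the trend was removed, by 0.50 for ATG9A and 0.19 for TMEM41B on the log2 scale. ZFYVE1, whose product DFCP1 marks the omegasome, had a log2 fold change of 0.42 (SE 0.10), and -0.28 with the trend removed.

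In the conjugation systems 6 of 8 genes were lower, among them the central ubiquitin-like proteins and the acceptor. ATG5, which receives ATG12 and forms the ligase that places LC3, measured 185, 148 and 167 normalized counts in DU145-TFEB and 369.5, 424 and 397 in DU145-vector (-1.25, SE 0.13, adjusted p = 1.72e-05). ATG12 measured 579.8, 537 and 617 against 1054, 1210.3 and 1008 (-0.91, SE 0.099), and ATG3 442, 494 and 469 against 709, 765 and 749 (-0.66, SE 0.089). ATG16L1, the partner that brings ATG12-ATG5 to the membrane, was higher and very even, with 965, 972 and 942 against 734, 737 and 725 (0.39, SE 0.075, adjusted p = 0.000826). Without the trend ATG5 stayed lower at -0.31, ATG16L1 stayed higher at 0.29, and ATG3 and ATG12 became higher at 0.25 and 0.16, of which ATG12 had an adjusted p of 0.0825.

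MAP1LC3B, the only ATG8 protein analysed and a known TFEB target, was lower in DU145-TFEB. It measured 1288, 1319 and 1469 normalized counts against 2253, 2174 and 2184, with every DU145-TFEB library far under the DU145-vector libraries. The log2 fold change was -0.70 (SE 0.076, adjusted p = 2.58e-05). MAP1LC3B was 1 of 3 genes with a GC content at or above the listed median that were lower, next to WDR45B and TAX1BP1, and with the trend removed its difference was larger, -1.09 (SE 0.084). Its near-identical copy MAP1LC3B2 could have taken part of the reads, so its level is uncertain.

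The ATG4 proteases, which trim ATG8 proteins and release them from lipid, did not move together. ATG4D rose the most of the 40 genes on the authors' scale, from 713, 606 and 664 normalized counts in DU145-vector to 1213, 1397 and 1128 in DU145-TFEB (0.91, SE 0.10, adjusted p = 3.45e-05). ATG4C fell, with 107, 105 and 146 against 209, 254 and 215 (-0.92, SE 0.17), and ATG4A, the least counted of the 40, had a log2 fold change of -0.63 (SE 0.17) that did not pass with quantile normalization or in DESeq2 and was -0.19 with the trend removed, with an adjusted p of 0.284. ATG4D and ATG4C also had the highest and the lowest GC content of the 40, 64.8% and 34.8%, and with the trend removed they were -0.24 and -0.13, the latter with an adjusted p of 0.408.

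Of the 10 receptor genes 6 were lower and 4 were higher, and the soluble receptors that bind ubiquitin were divided. SQSTM1, which encodes p62 and is a known TFEB target, measured 7832, 8833 and 7204 normalized counts in DU145-TFEB and 5069.5, 5309.5 and 4603 in DU145-vector (0.67, SE 0.090, adjusted p = 9.12e-05). NBR1, its relative with a similar domain order, measured 3177, 2906 and 3362 against 4874, 4245 and 4787 (-0.56, SE 0.083). TAX1BP1 fell most among these receptors, with 1525, 1242 and 1735 against 4024, 4344 and 3669 (-1.43, SE 0.12, adjusted p = 7.20e-06). CALCOCO2, or NDP52, which recognises invading bacteria and damaged mitochondria, measured 895, 821 and 1099 against 2159, 1955 and 2050.0 (-1.14, SE 0.11). Optineurin, encoded by OPTN, showed little spread, with 1347, 1296 and 1349.8 against 2629, 2586 and 2639 (-0.98, SE 0.065, adjusted p = 3.56e-06). Once the trend was removed TAX1BP1 was -1.15, the lowest of the 40 genes, OPTN -0.60 and CALCOCO2 -0.49, while SQSTM1 changed sign to -0.30 and NBR1 lay at 0 (SE 0.072).

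Per kilobase of the gene length in the deposited table, SQSTM1 had the highest level of these 5 receptors in every library. That length counts all annotated exonic bases of the gene and is not the length of 1 transcript. Without the division, NBR1 lay above SQSTM1 in DU145-vector replicate 3, at 4787 against 4603 normalized counts. The share of SQSTM1 in the summed level per kilobase was 52.8, 58.1 and 48.9% in DU145-TFEB and 27.0, 28.8 and 25.8% in DU145-vector. This comparison was chosen after the values were seen. The mean share was 53.3% ± 4.62 (SD, n = 3) against 27.2% ± 1.5 (SD, n = 3), and the groups did not overlap (exact permutation test, two-sided, p = 0.1, the smallest that 3 against 3 allows). SQSTM1 was higher and the other receptors lower, each without overlap, so the shares could not overlap and this p is a description only. The share of TAX1BP1 was 8.42% ± 1.51 against 18.2% ± 1.28, and that of OPTN 13.3% ± 0.52 against 21.3% ± 0.67 (SD, n = 3). The shift in SQSTM1 share, 26.1 percentage points, came down to 3.09 with the trend removed, 41.0% against 37.9% (exact permutation test, two-sided, p = 0.3). Shares within a library do not depend on the scaling between libraries.

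**Figure D3:**
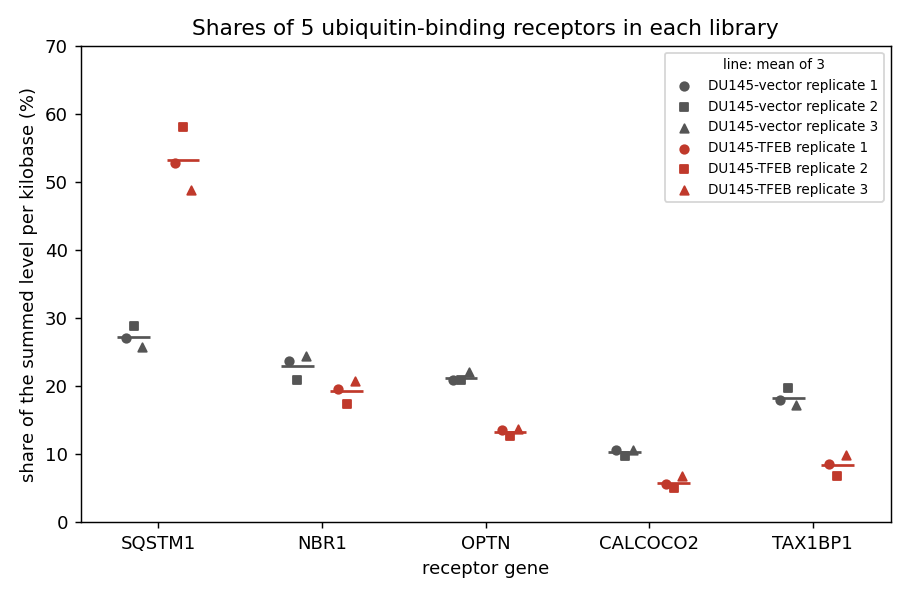
Each point is the share (%) of 1 receptor gene in the summed level per kilobase of SQSTM1, NBR1, OPTN, CALCOCO2 and TAX1BP1 in 1 library, and lines mark the mean of 3 libraries. SQSTM1 lies at 48.9 to 58.1% in DU145-TFEB and 25.8 to 28.8% in DU145-vector, and TAX1BP1 at 6.82 to 9.83% against 17.2 to 19.7%.

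WDFY3 encodes ALFY, a large scaffold that joins p62-bound aggregates to the autophagy machinery. It measured 331, 250.2 and 466 normalized counts against 1274, 1420.0 and 1327, the greatest fold reduction of the 40 in mean normalized count, 3.84-fold (-1.98 on the log2 scale, SE 0.19, adjusted p = 1.33e-05). With the trend removed it was -1.05 (SE 0.099), among the lowest of the 40. TBK1, the kinase that phosphorylates OPTN and p62, measured 321, 328 and 373 against 695, 876 and 703 (-1.15, SE 0.12), and -0.29 with the trend removed.

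The mitochondrial and endosomal members were higher on the authors' scale. PHB2, an inner membrane protein exposed when mitochondria rupture and the most abundant of the 40 genes per kilobase, measured 6811, 7483 and 6247 against 4833, 4545 and 4707 (0.54, SE 0.078, adjusted p = 0.000143). PINK1, the kinase that starts ubiquitin-dependent mitophagy, measured 579, 627 and 588 against 421, 321 and 523 (0.53, SE 0.16), and its DU145-vector replicate 3 lay closest to the DU145-TFEB libraries. TOLLIP, an adaptor with a ubiquitin-binding CUE domain, had a log2 fold change of 0.50 (SE 0.094). After removal of the trend PHB2 was -0.44, PINK1 -0.11 and TOLLIP -0.46.

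The fusion step had 3 lower and 2 higher genes. STX17, the SNARE that marks the closed autophagosome, measured 118, 81.9 and 141 normalized counts against 380.3, 371 and 344 (-1.71, SE 0.19, adjusted p = 2.89e-05), and without DU145-TFEB replicate 2 its log2 fold change was -1.49. SNAP29, its SNARE partner, measured 1286, 1302 and 1309 against 1679, 1653 and 1459 (-0.29, SE 0.079), and it did not pass the test with upper-quartile scaling, quantile normalization or DESeq2 size factors. EPG5, a tether that stabilises the SNARE assembly, showed 551, 469.5 and 760.1 against 1577, 1443 and 1739 (-1.44, SE 0.16). It passed the cutoff at -1.63 without DU145-TFEB replicate 3, and also passed without DU145-vector replicate 2. All 3 stayed lower with the trend removed, STX17 at -1.14, EPG5 at -0.65 and SNAP29 at -0.29. PLEKHM1, an adaptor between RAB7, the HOPS complex and ATG8 proteins, measured 1079.6, 1199 and 1082 against 753, 716 and 752 (0.60, SE 0.081), and TECPR1, a tether on lysosomes, 1248, 1292 and 1266 against 947, 816 and 1021 (0.46, SE 0.094). Both became lower with the trend removed, PLEKHM1 at -0.08 with an adjusted p of 0.305 and TECPR1 at -0.35.

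**Figure D4:**
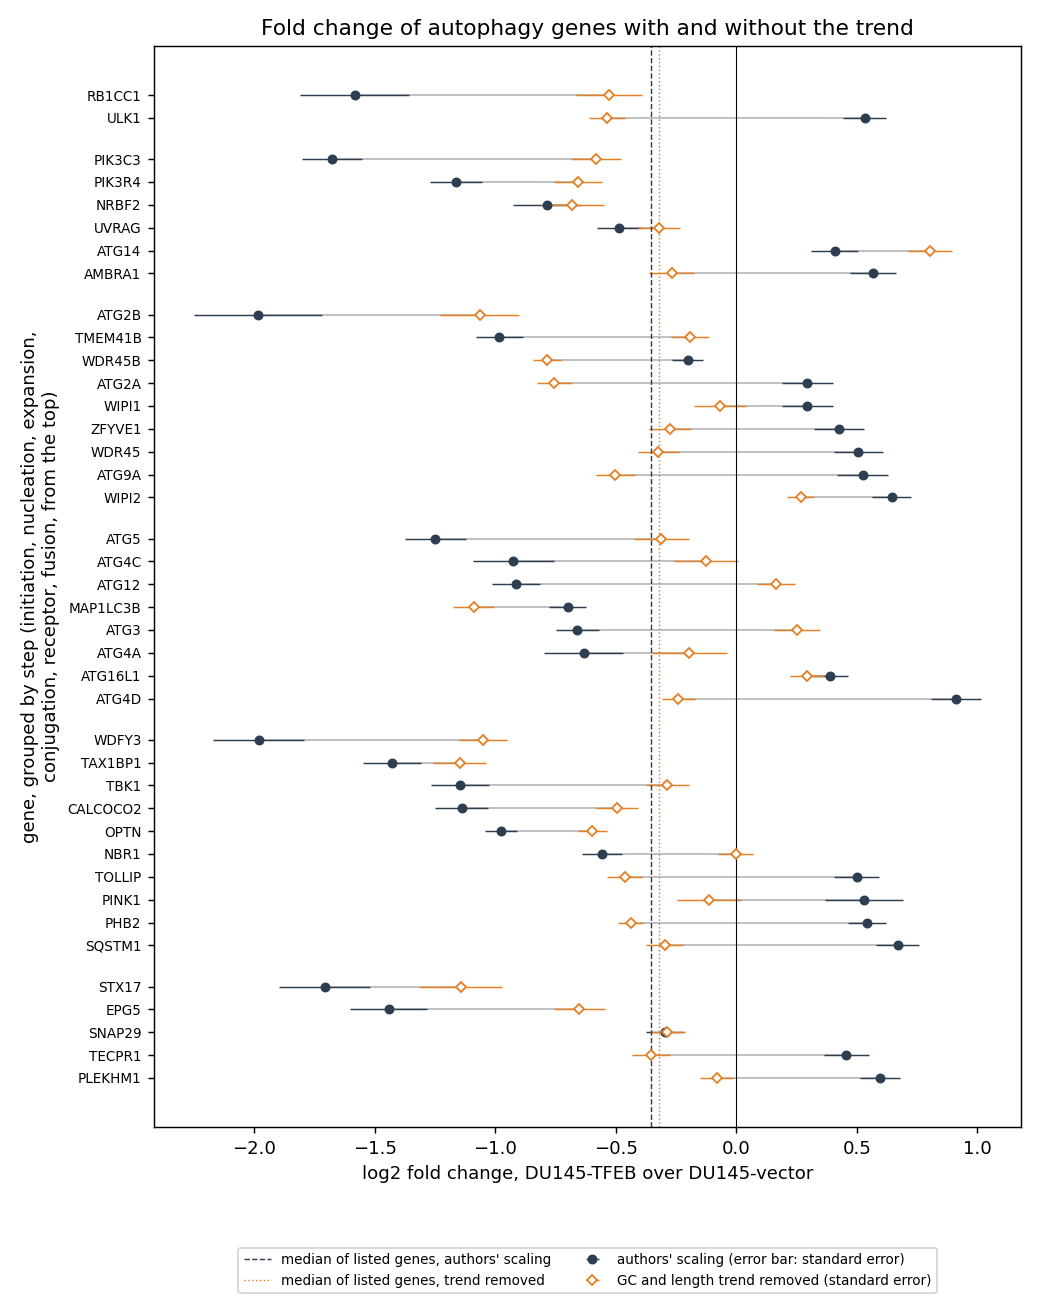
The log2 fold change of DU145-TFEB over DU145-vector is plotted for each of the 40 genes on the authors' scaling (filled circles) and with the trend against GC content and gene length removed (open diamonds), with standard errors; vertical lines mark 0 and the medians of the listed genes, -0.36 and -0.32. Of the 17 genes to the right of 0 on the authors' scaling, ATG14, WIPI2 and ATG16L1 remain there, and TAX1BP1, STX17, MAP1LC3B, ATG2B and WDFY3 are farthest left with the trend removed.

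Related genes within the set were compared as log2 ratios of normalized counts inside each library, which takes the scaling out. All 6 pairs with both genes analysed differed between the groups without overlap, and each had an exact two-sided permutation p of 0.1, the smallest possible with 3 against 3, and 0.1 after adjustment over the 6. The share of other pairs of listed genes without overlap was not computed, and 99.3% of single listed genes did not overlap. The ratios of ATG2A to ATG2B, ATG4D to ATG4C, SQSTM1 to NBR1 and WDR45 to WDR45B could not overlap. In each of them the genes moved in opposite directions without overlap. The log2 ratio of ATG2A to ATG2B was 3.28, 4.0 and 2.53 in DU145-TFEB and 1.09, 0.65 and 1.23 in DU145-vector, a shift of 2.28 toward ATG2A. ATG4D to ATG4C stood at 3.49, 3.73 and 2.94 against 1.77, 1.25 and 1.62, a shift of 1.84. SQSTM1 to NBR1 stood at 1.30, 1.6 and 1.10 against 0.06, 0.32 and -0.06, a shift of 1.23. In each of these pairs the gene that gained had the higher GC content, and with the trend removed the shifts were 0.31, -0.11 and -0.30. Smaller shifts were found for WDR45 to WDR45B (0.71, and 0.46 with the trend removed), CALCOCO2 to TAX1BP1 (0.29 and 0.65) and WIPI1 to WIPI2 (-0.35 and -0.33), and these kept their direction.

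Single libraries differed in how far they moved. Among the 23 lower genes DU145-TFEB replicate 2 was the lowest library in 16 and DU145-TFEB replicate 3 the highest of its group in 19, as in 64.1% and 69.2% of the lower listed genes. In all 5 genes called lower replicate 2 was the lowest and replicate 3 the highest of the DU145-TFEB libraries. Without replicate 2 the genes called lower numbered 3, since RB1CC1 and STX17 dropped out, and 12.2% of listed genes were called lower. Without replicate 3 they numbered 7, with EPG5 and TAX1BP1 added, beside 19.4% of listed genes. Without DU145-vector replicate 2 they numbered 5, with EPG5 in place of RB1CC1, beside 14.8% of listed genes. In the fifth of listed genes with the lowest GC content DU145-TFEB replicates 1 to 3 deviated by a median of -0.65, -0.92 and -0.41 from the average of the 6 libraries on the log2 scale, and for the 23 lower genes it was -0.57, -0.63 and -0.36. The part of composition in this order was not tested.

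Exons of other annotated genes covered more than 10% of the exonic bases of 9 of the 40 genes, and their levels are uncertain. The strand setting of the counting is not given in the sources used here. For ATG9A, WDR45 and PHB2 the largest overlapping gene lay on the same strand, where that setting would not separate the reads. The overlap was 41.7% for PINK1 (with PINK1-AS), 38.8% for ATG9A, 28.1% for WIPI1 (with ARSG), 22% for SQSTM1 (with MRNIP), 15% for ATG4D (with KRI1), 14.7% for TBK1, 13.9% for WDR45, 12.1% for SNAP29 and 11.8% for PHB2.

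Further genes of the pathway were described in the same way. All were outside the 55 except ALFY, another name of WDFY3 that matched no gene as written. Of 68 named, 48 were analysed, 22 were higher and 26 were lower, with 1 called higher (2.08%, beside 2.54% of listed genes) and 9 called lower (18.8%, beside 16.5%) and a median of -0.36 (-0.28 with the trend removed). DEPP1, a FOXO-responsive inducer of autophagy, went from 167, 103 and 129 normalized counts in DU145-vector to 558, 485 and 509.8 in DU145-TFEB, a log2 fold change of 1.98 (SE 0.17), and 1.03 with the trend removed. The next on the higher side were KEAP1 at 1.0, which targets NRF2 for degradation and is bound by p62, ULK3 at 0.83 and the mTOR complex subunit MLST8 at 0.78. The lowest were RICTOR at -2.0, a subunit of mTORC2, the AMPK subunits PRKAA1 at -1.98 and PRKAB2 at -1.74, and the mitophagy receptor BNIP3L at -1.78. PRKAA2, RAB33B, MITF, SEC62 and CCPG1 were also called lower, and stood at -0.68, -0.78, -0.82, -0.50 and -0.44 with the trend removed. With the trend removed KEAP1, ULK3 and MLST8 lay at -0.03, -0.20 and -0.29, and RICTOR, PRKAA1, BNIP3L and PRKAB2 at -0.91, -1.0, -0.95 and -0.96.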

How the data were processed

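PolyA RNA from 3 DU145-TFEB and 3 DU145-vector libraries was sequenced. Tools named in the submitters' processing notes are CASAVA 1.8, HISAT2 2.1.0 and edgeR, with the build GRCh38, and the study's methods name DESeq2. The counter, its strand setting and the annotation are not given in the sources used here, although gene positions equalled GENCODE 29 for 10541 of 10542 rows. The authors deposited 1 table of normalized counts per library (a signal, reads divided by a size factor of 0.95 to 1.10). Dividing by the smallest step returned whole reads for 100.0% of values (tolerance 0.01). The deposited comparison columns (p-value, its adjusted form and log2 fold change) were not used, except that the adjusted p-value was below 0.05 in all 10542 rows.

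Groups were taken from the titles. Fold changes were computed on log2(normalized count + 1), which understates changes of low genes, with limma 3.58.1 (mean-variance trend, R 4.3.3, no replicate block) on all 10542 rows and Benjamini-Hochberg adjustment. Calls used adjusted p below 0.05 and a log2 fold change beyond 1.5. The fit was tested on simulated data. The trend against GC content (longest transcript, 10537 genes and 40 of 40 members) and gene length was removed in each library by loess (span 0.5). Alternatives were edgeR 4.0.16, DESeq2 1.42.0, voom, other scalings, pseudocounts, filters and cutoffs, and leaving out each library. Values in every library were given for the 2 largest and 2 smallest log2 fold changes of each step, for known TFEB targets (MAP1LC3B, SQSTM1, UVRAG, WIPI1) and for related pairs; others were added where the text turned on them. Members, lists and the pathway genes were chosen with earlier results of these data known. p-values measure the spread between these libraries.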

Additional observations from a re-analysis of the deposited data

How the results depend on the processing

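The median log2 fold change of the 40 genes, -0.52 in the main analysis, was -0.34 with upper-quartile scaling, -0.28 with DESeq2 size factors, -0.44 with TMM, -0.24 with quantile normalization, -0.28 in DESeq2, -0.45 in edgeR, -0.45 in voom and -0.32 with the trend against GC content and length removed, with or without the replicate block. The median of all listed genes moved with the scaling too, from -0.36 to -0.12 with DESeq2 size factors and -0.03 with quantile normalization, and the share of lower genes among calls over all listed genes from 86.7% to 70.3% and 58.9%. The 5 genes called lower (16.5% of listed genes) became 2 with DESeq2 size factors (10.5%), 2 with quantile normalization (7.66%), 2 in DESeq2 (10.2%), 0 in limma's treat test against the cutoff (0.237%), 0 with the trend removed (4.04%, and 4.03% with the replicate block), 11 at a cutoff of 1 on the log2 scale (31.1%), 19 at a cutoff of 1.5-fold (43.9%), and 3 to 7 when single libraries were left out (12.2 to 19.4%). The genes called higher, 0, became 4 at a cutoff of 1.5-fold (25.1% of listed genes). The number higher with an adjusted p below 0.05 went from 17 to 0 in the treat test, to 4 with the trend removed (3 of the 17, and ATG3) and to 3 with the replicate block as well. The number lower went from 23 to 0 in the treat test, to 29 with the trend removed, of which 11 were among the 17, and to 27 with the replicate block as well. The cause of these shifts was not tested, except that treat tests against the cutoff itself.

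Single genes reversed in 2 kinds of setting. WDR45B was 0.038 with DESeq2 size factors and 0.0387 in DESeq2. With the trend removed, with or without the replicate block, ULK1 was -0.54, AMBRA1 -0.27, WIPI1 -0.067, WDR45 -0.32, ZFYVE1 -0.28, ATG2A -0.76, ATG9A -0.50, ATG3 0.25, ATG4D -0.24, ATG12 0.16, SQSTM1 -0.30, TOLLIP -0.46, PINK1 -0.11, PHB2 -0.44, PLEKHM1 -0.082 and TECPR1 -0.35, and without the block the pairs ATG4D-ATG4C and SQSTM1-NBR1 were -0.11 and -0.30. Replicate numbers did not pair the libraries (correlations of same-numbered deviations -0.02, -0.25 and -0.14), and with the replicate block alone 17 genes were higher, 23 lower and 5 called lower. The other directions held under the settings tried, while the number of libraries limits precision.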
